A study of Mus musculus with 3 samples.

Results

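The 4 genes studied belong to the Slc12 family of chloride cotransporters and were followed in retinal horizontal cells of young mice. They were taken as a list: Slc12a2, the 1 gene of chloride import, and Slc12a4, Slc12a5 and Slc12a7, the 3 genes of chloride export. These 4 of the 32285 genes in the count tables were listed by name. The study made 3 single-cell libraries with 1 library per age, at 6, 8 and 11 days after birth (P6, P8 and P11). All 3 came from retinas of Cx57icre;Ai14 mice, in which a Cre recombinase placed under the connexin 57 gene switches on a red fluorescent reporter in horizontal cells, and reporter-positive cells were sorted after papain digestion. No group lacked either allele, and the labels do not say how many animals a library held.

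Horizontal cells lie in the outer retina, where they receive input from rods and cones and send inhibitory feedback onto them. The cotransporters set the chloride level inside a neuron, and with it whether opening a GABA-A receptor depolarises or hyperpolarises the cell. NKCC1, the product of Slc12a2, carries sodium, potassium and chloride inwards. The potassium-chloride cotransporters KCC1 (Slc12a4), KCC2 (Slc12a5, found in neurons) and KCC4 (Slc12a7) carry potassium and chloride outwards. In many central neurons the balance shifts from NKCC1 towards KCC2 after birth. All measurements here are of RNA, and neither protein nor chloride was measured.

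The windows before the transcription starts of the 3 export genes are shown because Slc12a5 and Slc12a7 had higher levels at each later age while Slc12a4 stayed near 0. Windows of Slc12a2 were not examined on their own, so no comparison of import and export genes is given. Each window holds the 250 bases before an annotated RefSeq start (GRCm38.p6), read 5' to 3' on the gene's strand, and capitals mark the letters CACGTG, the E-box that the upstream stimulatory factors USF1 and USF2 bind. The windows are Slc12a5 start 1 at chr2:164960596-164960845 (plus), Slc12a5 start 2 at chr2:164967738-164967987 (plus), Slc12a7 at chr13:73763447-73763696 (plus) and Slc12a4 at chr8:105966116-105966365 (minus).
Slc12a5 start 1: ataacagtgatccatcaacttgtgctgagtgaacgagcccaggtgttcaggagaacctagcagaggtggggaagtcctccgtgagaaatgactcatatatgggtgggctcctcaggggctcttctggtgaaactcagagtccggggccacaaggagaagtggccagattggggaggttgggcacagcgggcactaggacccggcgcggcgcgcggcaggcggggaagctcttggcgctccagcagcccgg
Slc12a5 start 2: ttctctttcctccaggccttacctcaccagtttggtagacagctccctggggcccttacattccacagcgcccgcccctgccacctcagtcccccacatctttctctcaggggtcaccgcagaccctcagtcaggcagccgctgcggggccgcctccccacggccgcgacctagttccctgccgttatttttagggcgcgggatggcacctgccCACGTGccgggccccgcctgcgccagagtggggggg
Slc12a7: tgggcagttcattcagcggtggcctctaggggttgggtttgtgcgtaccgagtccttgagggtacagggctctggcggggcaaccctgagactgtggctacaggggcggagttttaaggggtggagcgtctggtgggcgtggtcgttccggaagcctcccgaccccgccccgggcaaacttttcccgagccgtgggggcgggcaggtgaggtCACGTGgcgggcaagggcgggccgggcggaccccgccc
Slc12a4: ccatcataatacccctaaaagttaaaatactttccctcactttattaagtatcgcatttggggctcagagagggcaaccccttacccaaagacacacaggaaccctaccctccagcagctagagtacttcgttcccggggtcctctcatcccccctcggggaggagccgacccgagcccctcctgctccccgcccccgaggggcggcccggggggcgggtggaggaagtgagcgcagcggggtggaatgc

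CACGTG, which reads the same on both strands, stood 36 bases before the downstream start of Slc12a5 and 38 bases before the printed start of Slc12a7. The upstream Slc12a5 window and the Slc12a4 window held none. The window of the other annotated Slc12a7 start (chr13:73763410-73763659) overlaps the printed one and ends on the first letter of the same CACGTG. It therefore counted as a window without a match, although that CACGTG lies across its start. Of all 32851 promoter windows of this length, 1978 (6.02%) held CACGTG. The letters GCGNGGGCG, a site of the early growth response factors searched on both strands, were absent from every window of the 3 export genes and present in 4.70% of all windows. The 5 windows had 60.8% to 68.8% G or C, against a median of 52.4% over all windows. Both Slc12a7 windows lie inside the gene span given below, which begins at 73733094, and no window was read at that end. Counts taken near the 3' end of a molecule do not tell from which start it came. These matches describe the letters only, and binding was not measured.

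In the mm10 build (GENCODE vM21), Slc12a2 (ENSMUSG00000024597) lies on the plus strand of chromosome 18 from 57878678 to 57946821, a span of 68.1 kb. Slc12a5 (ENSMUSG00000017740) lies on the plus strand of chromosome 2 from 164960802 to 164999731, a span of 38.9 kb. Slc12a7 (ENSMUSG00000017756) lies on the plus strand of chromosome 13 from 73733094 to 73816754, a span of 83.7 kb. Slc12a4 (ENSMUSG00000017765) is a minus-strand gene of chromosome 8 (105943590 to 105966097, a span of 22.5 kb), and its 3' end is overlapped on the other strand by the gene Gm16156.

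Horizontal cells were taken as barcodes with at least 1000 detected genes, at most 10% of unique molecular identifiers (UMIs, each a count of 1 captured RNA molecule) from mitochondrial genes, and a UMI of at least 2 of the 3 lineage factors Lhx1, Onecut1 and Onecut2. They numbered 7145 of 9896 barcodes at P6, 3153 of 4635 at P8 and 4757 of 5517 at P11, or 94.4%, 96.1% and 96.2% of the barcodes that passed the gene and mitochondrial limits. Their summed UMIs were 82305608, 62520239 and 103160766, and the median per cell was 12161, 20671 and 22106. All 8 horizontal markers were detected at every age, with a summed level of 7156, 8544 and 11834 counts per 1000000 UMIs (CPM) at P6, P8 and P11. The 3 lineage factors are among these 8, and their detection was set by the rule. Outside the rule, Calb1 stood at 702, 1714 and 2952 CPM and Prox1 at 932, 973 and 1336 CPM. Tfap2b stood at 1671, 1466 and 1698 CPM and Sept4 at 1348, 2021 and 3484 CPM. Gja10, the connexin gene behind the Cre line, stood lowest of the 8 at 9.94, 26.1 and 25.4 CPM. Summed markers of rods stood at 7.16, 6.35 and 5.42 CPM, of bipolar cells at 4.77, 3.26 and 2.91 CPM, and of cones under 1 CPM. The amacrine sum of 330, 279 and 255 CPM was mostly Slc32a1, the vesicular GABA transporter gene that horizontal cells also use (272, 259 and 238 CPM). Summed ganglion cell markers stood at 1298, 1382 and 833 CPM, mostly Nefl (1249, 1358 and 815 CPM), and Müller markers at 133, 142 and 206 CPM, mostly Glul (122, 137 and 196 CPM). Pigment epithelium markers summed to 76.6, 27.9 and 49.9 CPM, nearly all Mitf, and no other class exceeded 11.4 CPM at any age. The part of other cells in the levels below was not tested beyond leaving out cells with 3 markers of another class, which moved no importer share by more than its interval.

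Slc12a2, the importer gene, was the most abundant of the 4 by UMIs at every age and was lowest at P8. It had 22060 UMIs at P6, 10834 at P8 and 27585 at P11, or 268, 173 and 267 CPM. The exact Poisson 95% intervals ran from 264.5 to 272 CPM at P6, 170.04 to 177 CPM at P8 and 264 to 271 CPM at P11, so the P8 interval overlapped neither of the others while those of P6 and P11 overlapped. All intervals cover counting error only, since 1 library per age leaves the spread between animals unmeasured and permits no test.

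Slc12a5, the KCC2 gene, was higher at each later age. It had 6563 UMIs at P6, 7745 at P8 and 19582 at P11, or 79.7, 124 and 189.8 CPM. The intervals were 77.8 to 81.7, 121 to 127 and 187 to 192 CPM, and none overlapped. Slc12a7, the KCC4 gene, followed the same order at a lower level, with 741, 1004 and 3599 UMIs or 9.003, 16.1 and 34.9 CPM. Its intervals were 8.37 to 9.68, 15.1 to 17.1 and 33.8 to 36.05 CPM, again without overlap.

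Slc12a4, the KCC1 gene, was close to the limit of detection. It had 10 UMIs at P6, 4 at P8 and 4 at P11, or 0.121, 0.064 and 0.0388 CPM, where 3 counts correspond to 0.0364, 0.048 and 0.0291 CPM. The interval of each ratio between ages included 1, from 0.0731 to 1.11 for P11 over P6, and no difference was detectable at this depth.

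Per kilobase of annotated exon, the order of the genes depended on age. Slc12a2 had 24.5, 15.9 and 24.5 CPM per kb at P6, P8 and P11, against 10.7, 16.6 and 25.5 CPM per kb for Slc12a5. On that scale Slc12a2 stood above Slc12a5 at P6 and below it at P8 and P11, by margins outside the counting intervals. Slc12a7 had 0.711, 1.27 and 2.75 CPM per kb and Slc12a4 stayed at or below 0.0284 CPM per kb. The chemistry counts molecules near their 3' end, so dividing by exon length is a second scale and not a correction.

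**Figure D1:**
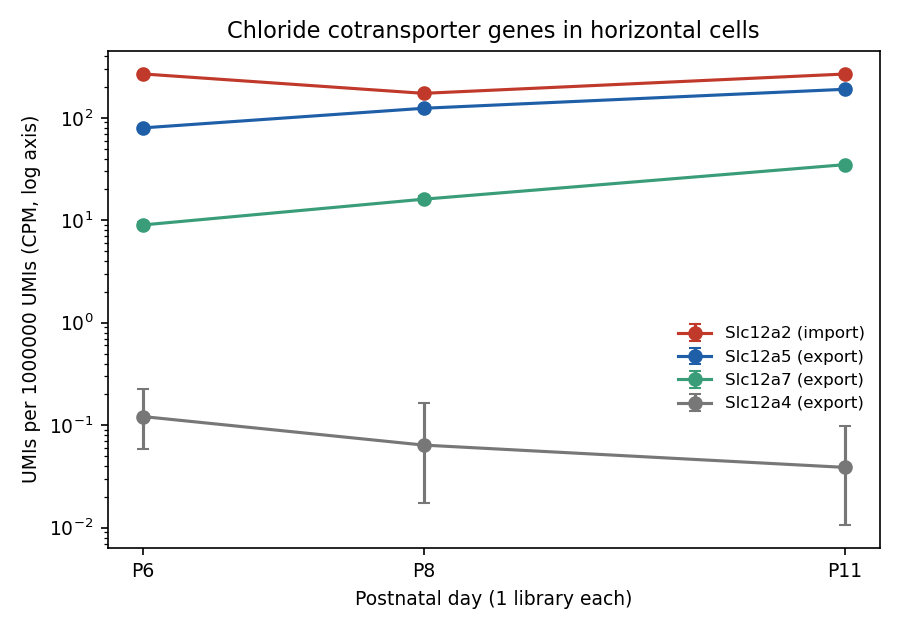
Level of the 4 cotransporter genes in horizontal cells (CPM, log axis) against age, 1 library per age, with exact Poisson 95% intervals. Slc12a5 and Slc12a7 are higher at each later age, Slc12a2 is lowest at P8 and Slc12a4 lies under 0.2 CPM throughout.

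As ratios, Slc12a2 was 0.647 times its P6 level at P8 (95% interval 0.632 to 0.662), 1.54 times its P8 level at P11 (1.51 to 1.58) and 0.998 times its P6 level at P11 (0.980 to 1.02). Slc12a5 was 1.55-fold higher at P8 than at P6 (1.503 to 1.61), 1.53-fold higher at P11 than at P8 (1.49 to 1.57) and 2.38-fold higher at P11 than at P6 (2.31 to 2.45). For Slc12a7 the same ratios were 1.78 (1.62 to 1.96), 2.17 (2.03 to 2.33) and 3.88 (3.58 to 4.1995). The summed export genes were 2.53-fold higher at P11 than at P6 (2.46 to 2.597), at 224.7 CPM against 88.9 CPM.

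These ratios were read against all genes that reached 20 CPM at either age compared. Between P8 and P6, 7.97% of 7067 such genes were at least 1.5-fold higher at P8 and 21.7% at least 1.5-fold lower. Between P11 and P8 the shares were 10.4% higher and 4.55% lower of 6770 genes, and between P11 and P6 7.35% higher and 12.3% lower of 7161. Of the 4 genes, Slc12a5 was past 1.5-fold in all 3 comparisons, Slc12a2 was past it at P8 against P6 (lower) and at P11 against P8 (higher), and Slc12a7 passed it at P11 against both earlier ages. Slc12a7 reached only 16.1 CPM at P8 and so was not among the genes counted for P8 against P6, and Slc12a4 was counted in no comparison. For P11 against P8 the calls of Slc12a2 (log2 0.63) and Slc12a5 (0.62) stood just past the 1.5-fold limit and were under it with either rescaling given below. The median log2 ratio of all counted genes was -0.14, 0.07 and -0.08 for P8 over P6, P11 over P8 and P11 over P6.

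For P11 over P6, 98.6% of all counted genes had a smaller log2 ratio than that of Slc12a5 (1.25), 99.5% a smaller one than that of Slc12a7 (1.95) and 57.7% a smaller one than that of Slc12a2 (0.00). The P8 value of Slc12a2 was less set apart, since 19.8% of genes had a still lower ratio for P8 over P6 than its -0.63.

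Gene length moved with the P8 library. Genes in the shortest of 5 equal groups by gene span had a median log2 ratio of 0.27 for P8 over P6, and those in the longest group of -0.73. Slc12a2 lies in span group 4, counted from the shortest, whose medians were -0.28 for P8 over P6 and 0.21 for P11 over P8. Against these medians the log2 ratios of Slc12a2 were -0.35 and 0.42, both under 1.5-fold. Slc12a7 lies in the same group and stood 1.12 and 0.91 above its medians. Slc12a5 lies in span group 3 and stood 0.74 and 0.55 above its medians of -0.10 and 0.06, the second of these also under 1.5-fold. The part of gene length in the P8 level of Slc12a2 was not tested further.

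Rescaling the libraries moved every ratio by the same amount. TMM scaling added 0.28 to each log2 ratio of P8 over P6, -0.08 for P11 over P8 and 0.20 for P11 over P6, and median-of-ratios scaling added 0.32, -0.12 and 0.20. The split of all genes past 1.5-fold for P11 over P6 was 526 higher and 883 lower in CPM (37.3% higher), against 977 and 525 with TMM (65.0% higher) and 976 and 527 with median-of-ratios scaling (64.9% higher). For P8 over P6 the shares that were higher were 26.9%, 62.8% and 67.4% in the same order, and for P11 over P8 69.6%, 51.5% and 42.6%. Slc12a5 and Slc12a7 were higher at each later age under all these scalings, but for P11 over P8 Slc12a5 was then under 1.5-fold, at log2 0.54 with TMM and 0.50 with median-of-ratios scaling. For the same ages Slc12a2 was at 0.55 and 0.51, also under 1.5-fold. The P8 ratio of Slc12a2 to P6 stayed below 1 in each, at log2 -0.35 with TMM and -0.31 with median-of-ratios scaling, which is under 1.5-fold.

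The balance of import and export genes was taken as the importer share, the Slc12a2 UMIs as a percent of the UMIs of all 4 genes. Since it is formed within a library, no scaling between libraries enters it. Gene length was not adjusted for in the share, although Slc12a2 and Slc12a5 lie in different span groups. The importer share was 75.1% at P6 (Clopper-Pearson 95% interval 74.6 to 75.6, 29374 UMIs), 55.3% at P8 (54.6 to 56.0, 19587 UMIs) and 54.3% at P11 (53.9 to 54.8, 50770 UMIs). The share was therefore 19.8 percentage points lower at P8 than at P6, and 0.979 points lower at P11 than at P8 with overlapping intervals. For each export UMI there were 3.02, 1.24 and 1.19 import UMIs in order of age.

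Similar shares at P8 and P11 came with different levels in CPM, which are parts of a library's UMIs and not amounts of RNA per cell. At P8 the import level was lower and the export level higher than at P6 (140.0 against 88.9 CPM of export). At P11 the import level was close to that of P6 in CPM (log2 0.19 above it with TMM scaling) and the export level was higher still. Per cell, the mean count of Slc12a2 was 3.09, 3.44 and 5.80 UMIs at P6, P8 and P11, while median depth per cell also was higher at each later age. The 4 genes together stood at 357, 313 and 492 CPM at P6, P8 and P11. The ratio of Slc12a2 to Slc12a5 was 3.36 at P6, 1.40 at P8 and 1.41 at P11.

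Within export, Slc12a5 held 89.7%, 88.5% and 84.5% of UMIs at P6, P8 and P11, while Slc12a7 held 10.1%, 11.5% and 15.5%. Counted per kilobase of exon, the importer share was 68.2% at P6, 47.0% at P8 and 46.4% at P11. It thus lay above 50% at all ages in UMIs and only at P6 per kilobase, while the difference between P11 and P6 had the same direction on both scales.

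**Figure D2:**
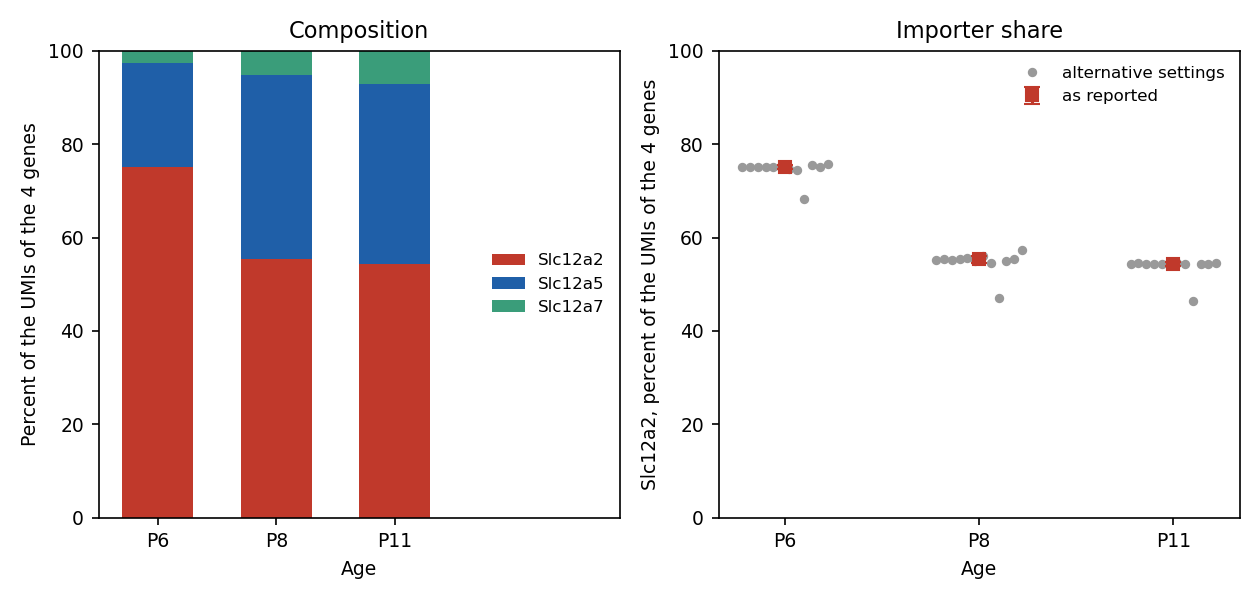
Left, percent of the UMIs of the 4 genes held by each at each age (Slc12a4, at most 0.034%, is not drawn). Right, the importer share as reported with its Clopper-Pearson 95% interval (red) and under 12 alternative settings (grey). The shares are 75.1%, 55.3% and 54.3% in order of age, and the lowest grey point at each age is that per kilobase of exon.

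At equal depth, the share of cells with a Slc12a2 UMI was lowest at P8, and those with a Slc12a5 or a Slc12a7 UMI were higher at each later age. Without thinning, 85.9%, 90.9% and 96.7% of horizontal cells held a Slc12a2 UMI at P6, P8 and P11, 53.9%, 84.8% and 94.5% a Slc12a5 UMI, and 9.10%, 25.8% and 48.8% a Slc12a7 UMI. Depth per cell differed between ages, so each cell was thinned to 3000 UMIs, which left out 377, 97 and 90 shallower cells. At that depth Slc12a2 was seen in 52.7% of 6768 cells at P6 (51.5 to 53.9), 38.9% of 3056 at P8 (37.2 to 40.7) and 53.9% of 4667 at P11 (52.5 to 55.4). Slc12a5 was seen in 21.1% (20.1 to 22.1), 30.9% (29.3 to 32.6) and 43.9% (42.5 to 45.3). Slc12a7 was seen in 2.6005%, 5.20% and 9.79%, and Slc12a4 in 2, 0 and 2 cells.

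In thinned cells the importer and its main partner were combined nearly as their separate shares would give. Slc12a2 and Slc12a5 occurred together in 10.6%, 12.3% and 23.6% of cells at P6, P8 and P11, where the product of their shares was 11.1%, 12.03% and 23.7%. Slc12a5 was seen in 20.1%, 31.6% and 43.8% of cells with a Slc12a2 UMI at P6, P8 and P11, and in 22.2%, 30.4% and 44.0% of cells without one. Cells with import and no export UMI made up 41.0%, 24.9% and 27.4%, and cells with export and no import UMI 11.3%, 20.6% and 22.5%. A cell without a UMI at this depth may still hold the transcript.

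**Figure D3:**
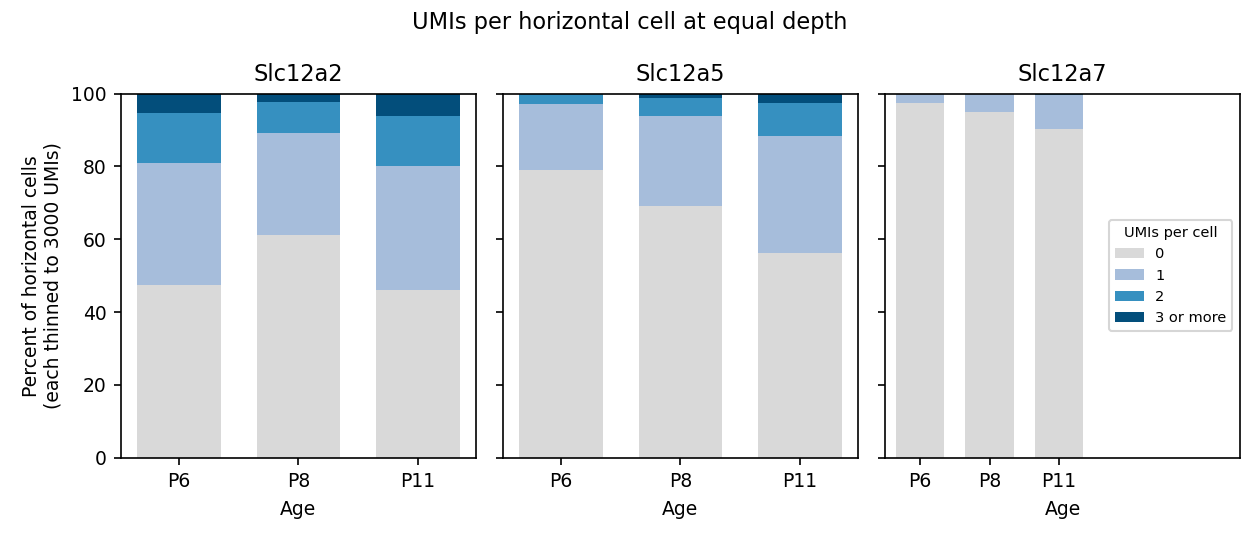
Percent of horizontal cells, each thinned to 3000 UMIs, that held 0, 1, 2 or at least 3 UMIs of Slc12a2, Slc12a5 or Slc12a7 at each age. The share of cells without a Slc12a5 UMI is 78.9% at P6, 69.1% at P8 and 56.1% at P11, while that without a Slc12a2 UMI is highest at P8 (61.1%).

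In thinned cells the variance of Slc12a2 and Slc12a5 counts was above the mean, which is the value for counting alone. Their ratios of variance to mean exceeded those of most genes of like level at every age. Thinning itself brings the variance closer to the mean, so these ratios cannot show how alike the cells were before it. The spread before thinning was not tested against counting. For thinned Slc12a2 counts the variance was 1.11, 1.14 and 1.15 times the mean at P6, P8 and P11. The medians for genes of like level were 1.05, 1.03 and 1.05, and 80.8%, 89.8% and 87.8% of those genes had a smaller ratio. For Slc12a5 the variance was 1.04, 1.09 and 1.05 times the mean, against medians of 1.02, 1.03 and 1.03. Of its genes of like level, 80.3%, 86.6% and 65.7% had a smaller ratio. Among cells with at least 5 UMIs of the 4 genes (2667, 2047 and 4215 cells), the median importer share was 80.0%, 55.6% and 53.8%. The middle 80% of these cells ran from 50% to 100% at P6, 25% to 83.3% at P8 and 30.8% to 76.9% at P11. At P6, 87.7% of them lay above 50%, against 54.3% at P8 and 53.5% at P11. These cells made up 37.3%, 64.9% and 88.6% of horizontal cells, so the P6 values describe its deeper cells. With as few as 5 UMIs in a cell, the ranges include counting error, and the counts per cell differed between ages. The part of counting in the width of the ranges was not tested.

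Mgarp and Vax2, by which horizontal cells of this age can be divided, separated the balance little at P6. There the 2121 cells with a Mgarp UMI had an importer share of 74.2% (73.3 to 75.1) and the 4647 cells without one 75.6% (74.98 to 76.2). At P8 the 2958 cells with Mgarp had 55.0% (54.3 to 55.7), against 64.2% (60.1 to 68.3) in only 98 cells without. In the same P8 cells Slc12a5 stood at 124.6 CPM with Mgarp and 92.4 CPM (79.1 to 107) without. Cells with a Vax2 UMI had shares of 76.3%, 53.4% and 55.2% at P6, P8 and P11, and cells without had 75%, 55.4% and 54.2%. The Vax2 intervals overlapped at every age.

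Malat1, a long non-coding RNA kept in the nucleus, moved with the importer gene at all 3 ages. The median share of a horizontal cell's UMIs from Malat1 was 1.98% at P6, 1.10% at P8 and 1.95% at P11, lowest at P8 as the Slc12a2 level was. Horizontal cells were ranked by the percent of their UMIs from Malat1, and the 25% with the highest share (Malat1-high) and the 25% with the lowest (Malat1-low) compared (1787 cells each at P6, 789 at P8 and 1190 at P11). Slc12a2 stood at 312 CPM in Malat1-high and 211 CPM in Malat1-low cells at P6, 231 and 121 CPM at P8, and 309 and 220 CPM at P11. The ratios of high to low were 1.48 (1.42 to 1.54), 1.91 (1.81 to 2.02) and 1.40 (1.35 to 1.45). Genes in the same span group had median ratios of 1.24, 1.43 and 1.25, and all genes of 1.01, 1.11 and 1.01.

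Slc12a5 differed less between the same cells. Its ratio of Malat1-high to Malat1-low cells was 1.14 (1.06 to 1.23) at P6, 1.10 (1.03 to 1.17) at P8 and 0.967 (0.929 to 1.01) at P11. The importer share was therefore higher in the Malat1-high cells, at 76.0% against 71.2% at P6, 61.2% against 47.5% at P8 and 58.0% against 48.6% at P11. Median depth was 12707 UMIs in Malat1-high and 8426 in Malat1-low cells at P6, 21872 and 19965 at P8, and 24387 and 20079.5 at P11. Among cells with 1% to 3% Malat1 at every age, the importer share was 75.7% at P6, 57.2% at P8 and 54.6% at P11. What part Malat1 had in the differences between ages was not tested beyond this.

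**Figure D4:**
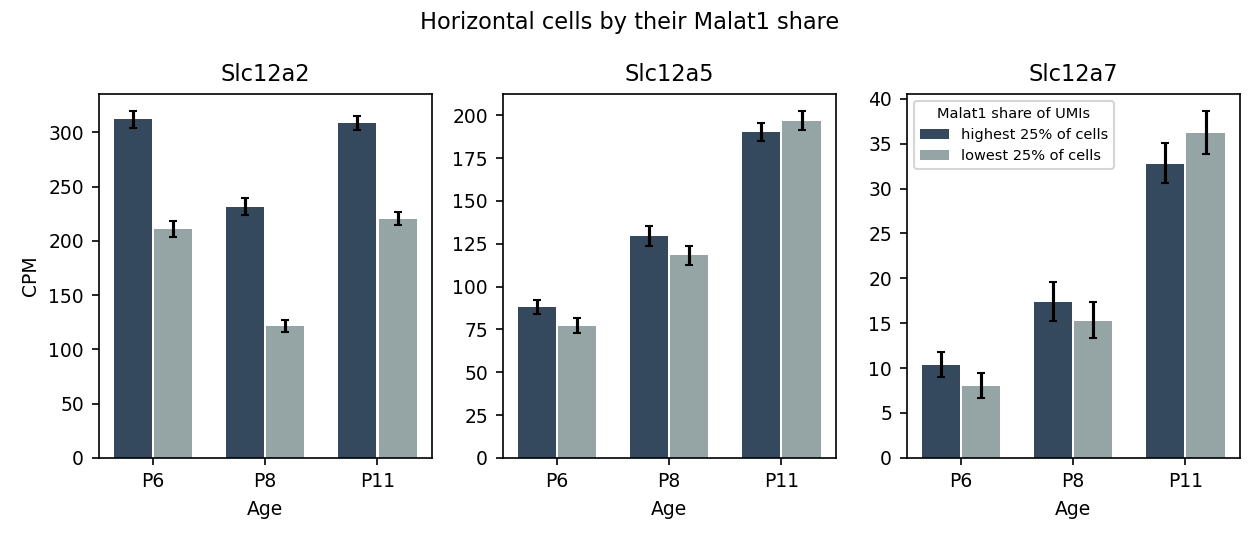
Levels (CPM) of Slc12a2, Slc12a5 and Slc12a7 in the 25% of horizontal cells with the highest (dark) and the lowest (light) Malat1 share of UMIs, at each age, with exact Poisson 95% intervals. Slc12a2 is higher in the Malat1-high cells at all 3 ages, by most at P8 (231 against 121 CPM), and Slc12a5 differs less between the same cells.

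The cells that passed the quality limits but not the horizontal rule numbered 427, 129 and 186 at P6, P8 and P11, with a median of 2322, 2924 and 2994.5 UMIs. In them Slc12a2 stood at 143, 107 and 111 CPM and Slc12a5 at 53.5, 104.6 and 273.7 CPM. Their importer share was 68.9% (62.6 to 74.6), 49.0% (39.0 to 59.1) and 27.9% (23.1 to 33.1). At P11 the horizontal cells, at 54.3%, lay above the cells outside the rule, at 27.9%, without overlap of the intervals. The cells outside the rule were shallow, and only part of them carried the markers of another class. Horizontal cells in which the lineage factors were missed may be among them, and their part was not tested.

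Cells outside the rule with UMIs of at least 3 markers of another class gave the level of each gene in barcodes of other types. How much of it was free RNA from horizontal cells, or came from doublets, was not tested. Slc12a2 was found at a low level in most of these classes. In the 35, 41 and 40 rod-like cells at P6, P8 and P11 it had 5, 5 and 2 UMIs, or 51.6, 45.9 and 21.1 CPM. In the 34, 17 and 30 bipolar-like cells it had 6, 4 and 7 UMIs, or 51.3, 55.6 and 47.0 CPM. Müller-like cells, the glia of the retina, held 2 UMIs in 30 cells at P6 and 3 in 12 cells at P11, or 23.8 and 57.0 CPM. No Slc12a2 UMI was found in the 23, 13 and 18 amacrine-like cells, where 3 counts would be 29.9, 29.9 and 21.7 CPM. The Poisson interval of each of these classes lay wholly below that of horizontal cells of the same age.

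Thinned to 3000 UMIs, 52.7%, 38.9% and 53.9% of horizontal cells held a Slc12a2 UMI at P6, P8 and P11. Rod-like cells held one in 2 of 8, 2 of 12 and 1 of 7 cells (25%, 16.7% and 14.3%), and bipolar-like cells in 1 of 15, 1 of 16 and 5 of 28 (6.67%, 6.25% and 17.9%). Among amacrine-like cells it was 0 of 18, 0 of 13 and 0 of 16, which allows shares of up to 16.7%, 23.1% and 18.8% when 3 cells are taken as the limit. Median depth before thinning was 1948, 2382 and 1987.5 UMIs in rod-like cells, 2754.5, 3736 and 4789.5 in bipolar-like cells and 4153, 7518 and 6976 in amacrine-like cells.

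Slc12a5 UMIs were also found in the other neuron-like cells. Rod-like cells had 10, 8 and 23 UMIs at P6, P8 and P11, bipolar-like 7, 8 and 53, and amacrine-like 5, 12 and 47. The gene stood at 103, 73.5 and 242 CPM in rod-like, 59.9, 111 and 356 CPM in bipolar-like and 49.9, 119 and 340 CPM in amacrine-like cells. At P11 the interval of horizontal cells (187 to 192 CPM) lay below those of bipolar-like cells (266.7 to 465.7 CPM) and amacrine-like cells (249 to 452 CPM) and overlapped with that of rod-like cells. At P6 and P8 the intervals of all 3 classes included the level in horizontal cells. No Slc12a5 UMI was found in the Müller-like cells at either age, where 3 counts would be 35.6 and 57.0 CPM, with median depths of 2755 and 3861 UMIs. The Müller-like cells held 2 Slc12a4 UMIs at P6 and 5 at P11.

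Of 4 other Slc12 genes listed beside the cotransporters, none reached 20 CPM at any age. Slc12a9 stood at 14.3, 10.1 and 11.2 CPM at P6, P8 and P11, and Slc12a8 at 0.668, 0.304 and 1.23 CPM. Slc12a1 and Slc12a3, the cotransporters of the kidney tubule, had at most 23 and 4 UMIs.

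Kinases of the WNK family sense chloride and switch on the kinases SPAK (Stk39) and OSR1 (Oxsr1), which stimulate NKCC1 and inhibit the KCC proteins. Of 11 genes for these kinases and their partners, 10 were measured for P11 over P6, of which 0 were at least 1.5-fold higher, 2 lower and 8 in between, with a median log2 ratio of -0.15. Over all 7161 genes counted for these ages 7.35% were higher and 12.3% lower, with a median of -0.08, the background for every list given for P11 over P6. Of the kinase genes Wnk4 had the most UMIs, at 182, 175 and 262 CPM at P6, P8 and P11, and stood 1.44-fold higher at P11 than at P6. Under TMM scaling Wnk4 passed 1.5-fold (log2 0.73), which gave 1 higher, 2 lower and 7 in between, where 977 of all 7161 genes were higher and 525 lower. Wnk1 stood at 82.3, 62.0 and 89.1 CPM, Wnk2 at 82.5, 52.6 and 68.5 CPM and Wnk3 at 36.4, 34.3 and 29.7 CPM.

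Stk39 stood at 74.96, 44.9 and 60.5 CPM and Oxsr1 at 17.8, 17.5 and 13.7 CPM. The scaffold genes Cab39 (79.3, 71.0 and 79.4 CPM) and Cab39l (39.2, 36.7 and 39.3 CPM), whose proteins activate SPAK and OSR1, differed little between ages. The 2 lower genes were Klhl3 (30.3, 11.3 and 11.6 CPM) and Klhl2 (30.5, 13.6 and 15.8 CPM), adaptors that deliver WNK kinases to a Cullin 3 ubiquitin ligase. Both were lower by more than 1.5-fold for P11 over P6 also under TMM scaling, at log2 -1.19 and -0.75. Cul3 itself stood at 186, 184 and 181 CPM.

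Of 7 genes for partner proteins of KCC2, 6 were measured for P11 over P6, with 1 higher, 2 lower, 3 in between and a median log2 ratio of -0.14. The list does not separate partners that raise KCC2 from partners that lower it. Pacsin1, a membrane-bending protein that binds KCC2, was the higher one, at 520, 702 and 1173 CPM. Grik2, a kainate receptor subunit gene, stood at 469, 141 and 179 CPM. Arhgef7, which encodes the exchange factor beta-PIX, stood at 175, 109 and 105 CPM, but its difference was under 1.5-fold with TMM (log2 -0.54).

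Of 5 transcription factors known to act on Slc12a5, 3 were measured for P11 over P6 and all 3 lay within 1.5-fold, with a median log2 ratio of 0.24. Usf1 stood at 21.8, 37.8 and 25.7 CPM at P6, P8 and P11, and Usf2 at 89.97, 103 and 108 CPM. Egr4, an activator of Slc12a5, had 0, 3 and 5 UMIs. Rest, a repressor, stood at 5.24, 4.13 and 5.58 CPM. Values of Usf1, Usf2, Egr4 and Rest are given for their role beside the promoter windows and were chosen after they were seen.

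Of 25 chloride channel and exchanger genes, 11 were measured for P11 over P6, with 2 higher, 1 lower, 8 in between and a median of 0.00, beside 7.35% higher and 12.3% lower of all genes. Slc4a3, the chloride-bicarbonate exchanger AE3, stood at 506, 851 and 2161 CPM, or 4.27-fold higher at P11 than at P6. Ttyh1, of the tweety family, stood at 59.0, 70.7 and 96.5 CPM. Clcn5, an endosomal chloride-proton exchanger, stood at 30.8, 14.4 and 13.0 CPM. TMM scaling gave 3 higher, 1 lower and 7 in between, beside 977 higher and 525 lower of all 7161 genes.

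Of 20 genes for GABA-A and glycine receptor subunits, 7 were measured for P11 over P6, with 0 higher, 4 lower and 3 in between, and a median of -0.65, beside 12.3% lower of all genes and their median of -0.08. Gabrb2 stood at 24.5, 4.75 and 3.87 CPM and Gabra2 at 309, 141 and 155 CPM. Under TMM scaling these 2 were the lower genes and the median was -0.45. Of 5 listed subunit genes of the sodium and potassium pump, which builds the ion gradients that the cotransporters use, 4 were measured, with 0 higher, 1 lower and 3 in between. Their median was -0.13 in CPM and 0.07 under TMM scaling. The lower gene was Atp1b2 (66.3, 35.4 and 21.1 CPM), also under TMM scaling (log2 -1.45).

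**Figure D5:**
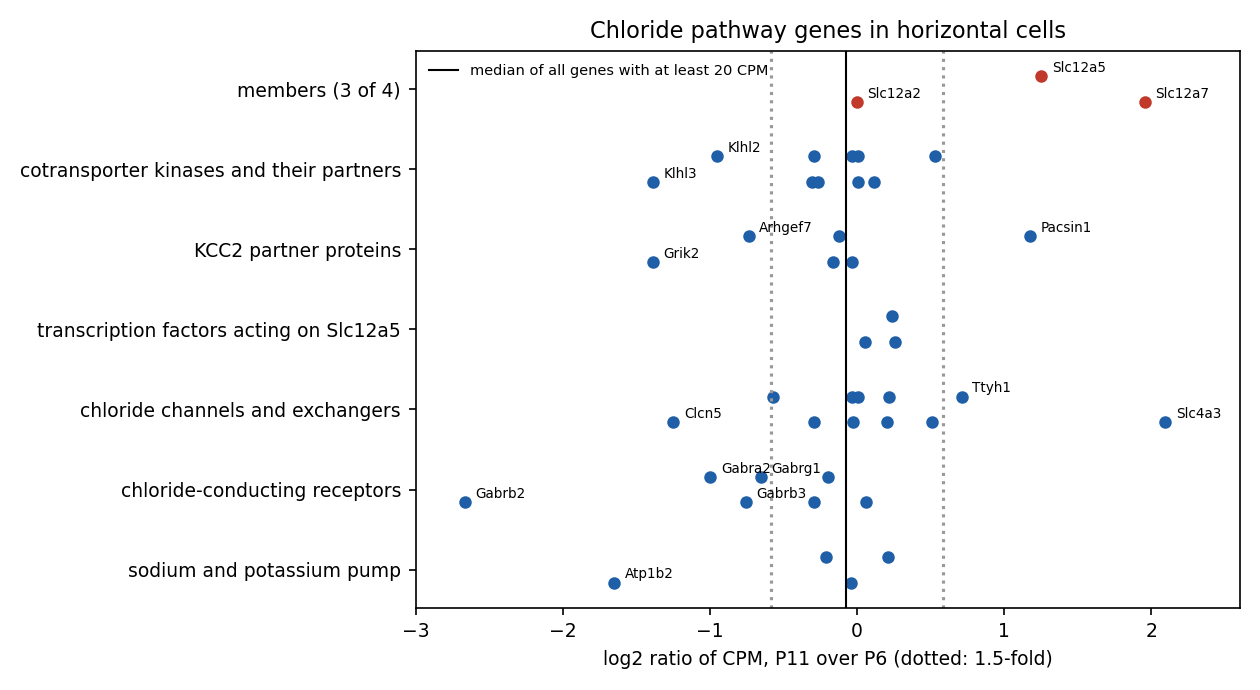
Log2 ratio of CPM, P11 over P6, for the cotransporter genes (red; Slc12a4 is not drawn) and the listed genes that reached 20 CPM at either age (blue), with the median of all such genes (line) and 1.5-fold (dotted). Slc12a5 (1.25), Slc12a7 (1.95), Pacsin1, Ttyh1 and Slc4a3 lie to the right of the dotted lines, and the receptor subunits lie mostly on the left.

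The genes most like each main cotransporter were taken as those with the nearest pair of log2 ratios (P8 over P6, P11 over P8) among 6908 genes over the 3 libraries. For Slc12a2 they were Adar (35.4, 23.0 and 35.6 CPM at P6, P8 and P11), Lrrc8d (28.3, 18.3 and 28.3 CPM) and Dop1b (24.6, 15.7 and 24.3 CPM), at distances of 0.01, 0.01 and 0.02 log2 units. For Slc12a5 they were Fn3k (13.8, 21.7 and 31.6 CPM), Pfkfb3 (64.3, 105 and 158 CPM) and Otulinl (34.3, 53.5 and 77.2 CPM), at 0.07, 0.08 and 0.09. With 3 points per gene many genes lie close to any pattern.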

How the data were processed

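Sorted horizontal cells of each age gave 1 single-cell library with the 10x Chromium 3' V3 chemistry, per the labels' protocols. The files are raw UMI counts as deposited, per gene and barcode. The submitters' processing notes name Cell Ranger 7.1.0 and mm10. Which annotation was used, and how intron reads and strand were treated, is not given in the sources used. Total UMIs were 87939202 at P6, 65546590 at P8 and 105561999 at P11.

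Barcodes under 1000 genes (1513, 1034 and 408) and then those over 10% mitochondrial UMIs (811, 319 and 166) were left out, and the horizontal rule was applied. Counts were summed over horizontal cells and divided by their summed UMIs (CPM). Levels carry exact Poisson, ratios exact conditional binomial and shares Clopper-Pearson intervals, all at 95%. They cover counting error only. With 1 library per age no test was possible, and no replicate check exists. A gene was counted as higher or lower at 1.5-fold where it reached 20 CPM at either age. Doublets were kept, since Scrublet (scanpy 1.11.5) marked 0%, 0.244% and 0.0202% of cells at its own threshold, under the working minimum of 0.5%. In an alternative, the cells at or above the score set by the loading rate (0.8% per 1000 cells) were left out. Horizontal cells of P8 and P6 shared 4 barcodes, of P11 and P8 5, and of P11 and P6 8.

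Cells outside the rule were named X-like by UMIs of at least 3 markers of a class. Of the features, 32235 had a position in GENCODE vM21. Promoter sequences came from the RefSeq table of GRCm38.p6, in which the 3 export genes had 5 windows. TMM factors came from edgeR 4.0.16 in R 4.3.3, other values from Python 3.11.15 with scipy 1.17.1. Interval and ratio code was tested on simulated counts. The members, lists, markers and naming rules were chosen with earlier results of these data known. Some genes that would belong to these lists are not reported here. The named genes were the 4 cotransporters, all measured relatives and kinases, at most the 2 highest and 2 lowest genes past 1.5-fold for P11 over P6 of each other list, and the 3 genes nearest in pattern to Slc12a2 and to Slc12a5, and any others named were chosen after their values were seen.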

Additional observations from a re-analysis of the deposited data

Results flagged for a closer look

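The barcodes left out by the quality limits also held the cotransporters, a signal in data that the comparisons above do not use, and there were no control samples to set it against. In barcodes under the gene minimum the importer share was 68.4% at P6 (64.4 to 72.2, 576 UMIs of the 4 genes), 63.8% at P8 (58.9 to 68.5, 403 UMIs) and 50.2% at P11 (44.1 to 56.3, 271 UMIs). In barcodes over the mitochondrial limit it was 72.7% at P6 (70.7 to 74.6, 2100 UMIs), 59.2% at P8 (56.3 to 62.1, 1157 UMIs) and 52.9% at P11 (50.01 to 55.8, 1158 UMIs). Both kinds of barcode had the highest share at P6 and the lowest at P11, as the horizontal cells did, but the steps between ages differed. Under the gene minimum the intervals of P6 and P8 overlapped and that of P11 lay below both. Over the mitochondrial limit no intervals overlapped, whereas in horizontal cells those of P8 and P11 did. At P6 both kinds lay below the 75.1% of horizontal cells, over the mitochondrial limit only just (upper limit 74.56% against a lower limit of 74.60%). At P8 both lay above the 55.3% of horizontal cells, without overlap of the intervals.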

How the results depend on the processing

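Ratios were computed again under up to 14 alternative settings (12 for Slc12a4 where P8 had 0 UMIs in the others), importer shares under 12 and counts of genes under 4. No ratio past 1.5-fold with 20 CPM changed direction. For P11 over P6, Slc12a4 changed sign in thinned cells (log2 0.54 against -1.65, from 2 cells with a UMI at each age), and Slc12a2, at -0.00, took either sign. Of 36 alternative importer shares, 28 stayed within the counting interval of the reported value and 8 moved outside it. The moved ones were 56.1% at P8 as a mean over cells, 74.5% at P6 and 54.6% at P8 in thinned cells, and 68.2%, 47.0% and 46.4% at P6, P8 and P11 per kilobase of exon. With choices made after seeing the data, they were 75.7% at P6 and 57.2% at P8 in cells of 1% to 3% Malat1. The share at P11 was lower than at P6 throughout, by differences of -20.1 to -21.8 percentage points. Against P8 the differences at P11 ran from -0.243 points in thinned cells to -2.62 points in cells of 1% to 3% Malat1.

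The log2 ratios of P11 over P6 became 0.19 for Slc12a2, 1.45 for Slc12a5 and 2.15 for Slc12a7 with TMM and with median-of-ratios scaling, the same values to 2 decimals. Against the median of the span group they became 0.10 for Slc12a2 and 1.30 for Slc12a5. Slc12a2 also became 0.053 as a mean over cells, 0.067 in thinned cells and, chosen after seeing the data, -0.038 in cells of at least 10000 UMIs. For P8 over P6, Slc12a2 ranged from -0.69 to -0.31 and was under 1.5-fold with either scaling, against its span group (-0.35), as a mean over cells (-0.52), in thinned cells (-0.57) and in cells of 1% to 3% Malat1 (-0.54). For P11 over P8, Slc12a5 was under 1.5-fold with TMM (0.54), median-of-ratios scaling (0.50) and against its span group (0.55). Slc12a2 was under it in the same settings (0.55, 0.51 and 0.42), as a mean over cells (0.57) and in cells of 1% to 3% Malat1 (0.53). The cause of these shifts beyond the setting itself was not tested.

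Counts of all genes past 1.5-fold moved most. With a minimum of 50 CPM, 809 genes were lower for P8 over P6, 410 higher for P11 over P8, and 333 higher and 489 lower for P11 over P6. With no minimum the higher and lower counts were 1852 and 7323, 3731 and 2789, and 2266 and 5819 for P8 over P6, P11 over P8 and P11 over P6. TMM gave 1409 and 836 for P8 over P6 and 518 and 488 for P11 over P8 and 977 and 525 for P11 over P6, and median-of-ratios scaling gave 1566 and 756, 443 and 598, and 976 and 527. No paired analysis was possible because each age has 1 library. With 1 library per age, the age and the library cannot be told apart, and Slc12a4 is limited by its 10, 4 and 4 UMIs.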
